A study of Mus musculus with 42 samples.

Results

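Thymocyte transcripts were followed in RNA-seq libraries made from thymic epithelial cells (TEC) of the mouse. They are the 32 genes Cd3d, Cd3e, Cd3g, Cd247, Cd4, Cd8a, Cd8b1, Rag1, Rag2, Ptcra, Dntt, Lck, Zap70, Lat, Themis, Tcf7, Bcl11b, Cd2, Cd5, Cd28, Thy1, Trbc1, Trbc2, Tox, Satb1, Ets1, Gata3, Arpp21, Cd27, Lef1, Coro1a and Ptprc. A gene was taken when its Ensembl identifier in the count table mapped to one of these symbols, and all 32 were found among 53465 genes. The study deleted Ski, which encodes a corepressor of transcription, in TEC only. The series holds 42 libraries of 200 sorted cells each. Cortical TEC (cTEC) were sorted as Epcam+CD45-UEA-Ly51+. Medullary TEC (mTEC) were sorted as Epcam+CD45-UEA+Ly51lo cells with low or high MHC class II (MHCII-low and MHCII-high mTEC). Every sort has 5 Control, 7 KO and 2 Ski flox Control libraries by their labels. The labels give no strain, age or sex, do not say what the Control carries, and do not name the promoter that drives the deletion. One Control library of each mTEC sort held fewer than 100000 counts and was left out, so 40 libraries were used. The labels do not say which libraries came from separate animals, so each p-value reflects only how far these libraries vary, and that variation may be technical.

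A thymocyte is a developing T cell. It assembles its T cell receptor (TCR) genes by cutting and rejoining DNA, carries the receptor to the surface with the CD3 chains, and is tested on peptides that TEC present on MHC molecules. Cortical TEC surround and can enclose thymocytes, and the cortex is filled with cells that carry both CD4 and CD8. Medullary TEC meet the fewer cells that have passed the first test. TEC themselves are not known to make a TCR. All sorts here were gated against CD45, the leukocyte surface protein encoded by Ptprc, which is 1 of the 32 genes. Counts from bulk libraries do not show which cell a read came from, and fewer cells of a type cannot be told apart from less RNA per cell.

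Some of the genes lie beside each other or share sequence. Cd3g, Cd3d and Cd3e lie on chromosome 9 between 44969572 and 45009627 (GRCm38), Rag2 and Rag1 on chromosome 2 between 101624718 and 101649501, and Cd8b1 and Cd8a on chromosome 6 between 71322788 and 71379173. Trbc1 (chromosome 6, 41538218 to 41539881) and Trbc2 (41546730 to 41548352) encode alternative constant regions of the TCR beta chain. Over the first 500 bases of their GENCODE M21 transcripts they differ at 19 positions (96.2% identity), and the first 259 bases are identical, so reads of that stretch cannot be assigned to either gene and the split between them is uncertain. Bases 221 to 460 are shown because they hold the end of the identical stretch and 12 of the differences, which are in capitals.
Trbc1: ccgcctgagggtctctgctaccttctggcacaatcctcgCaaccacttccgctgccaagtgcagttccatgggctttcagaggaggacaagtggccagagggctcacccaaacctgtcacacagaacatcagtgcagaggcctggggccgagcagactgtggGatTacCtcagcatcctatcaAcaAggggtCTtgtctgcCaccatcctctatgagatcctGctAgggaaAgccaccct
Trbc2: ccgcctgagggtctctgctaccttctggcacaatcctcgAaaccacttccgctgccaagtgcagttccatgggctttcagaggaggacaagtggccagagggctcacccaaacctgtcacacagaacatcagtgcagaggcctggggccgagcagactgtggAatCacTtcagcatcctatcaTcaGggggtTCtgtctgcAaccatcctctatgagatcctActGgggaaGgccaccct

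Promoter windows from RefSeq (GRCm38.p6, 250 bases before the start of the gene to 50 after) were found for 23 of the 32 genes. Each was searched on both strands for CAGCTG and CAGGTG (E-boxes, which bind the E proteins of lymphocyte development), CTTTGA (bound by TCF/LEF factors), GGAAGT (bound by ETS factors), AGATAA (the core that GATA3 binds) and TGTGGT (bound by RUNX factors). CAGCTG was in 6 of the 23 windows and in 16.1% of all 27025 windows in the table. CAGGTG was in 9 (20.0% of all), CTTTGA in 7 (16.2%), GGAAGT in 9 (24.1%), AGATAA in 3 (11.4%) and TGTGGT in 4 (16.9%). A match describes letters only. The windows of Ptcra and Rag1 are shown because most early mTEC libraries held no or almost no count of either gene, as described below, and those of Cd3d and Cd3g because both genes start close together on opposite strands. Rag2 had no count in 5 of 6 early MHCII-low and 6 of 6 early MHCII-high mTEC libraries. Its window held 0 matches and is not shown, so the windows below are not typical of all 23. Capitals mark matches to the motifs above.
Ptcra, chr17:46763663-46763962, minus strand: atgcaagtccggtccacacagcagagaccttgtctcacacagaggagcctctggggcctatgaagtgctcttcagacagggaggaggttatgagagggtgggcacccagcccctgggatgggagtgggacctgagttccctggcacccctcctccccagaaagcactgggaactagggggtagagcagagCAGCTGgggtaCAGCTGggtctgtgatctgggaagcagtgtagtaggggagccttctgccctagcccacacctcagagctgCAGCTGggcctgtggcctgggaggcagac
Rag1, chr2:101649483-101649782, minus strand: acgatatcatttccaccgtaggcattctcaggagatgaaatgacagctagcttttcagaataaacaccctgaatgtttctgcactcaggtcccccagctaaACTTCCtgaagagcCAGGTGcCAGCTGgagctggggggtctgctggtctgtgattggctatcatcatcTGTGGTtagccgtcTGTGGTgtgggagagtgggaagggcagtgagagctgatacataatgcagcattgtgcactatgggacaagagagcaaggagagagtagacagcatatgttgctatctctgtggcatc
Cd3d, chr9:44981536-44981835, plus strand: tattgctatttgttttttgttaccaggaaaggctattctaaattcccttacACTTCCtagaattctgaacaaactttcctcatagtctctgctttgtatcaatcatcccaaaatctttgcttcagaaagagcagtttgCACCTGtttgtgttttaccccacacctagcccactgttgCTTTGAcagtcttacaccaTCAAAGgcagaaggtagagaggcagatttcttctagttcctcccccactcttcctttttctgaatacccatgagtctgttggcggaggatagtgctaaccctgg
Cd3g, chr9:44980382-44980681, minus strand: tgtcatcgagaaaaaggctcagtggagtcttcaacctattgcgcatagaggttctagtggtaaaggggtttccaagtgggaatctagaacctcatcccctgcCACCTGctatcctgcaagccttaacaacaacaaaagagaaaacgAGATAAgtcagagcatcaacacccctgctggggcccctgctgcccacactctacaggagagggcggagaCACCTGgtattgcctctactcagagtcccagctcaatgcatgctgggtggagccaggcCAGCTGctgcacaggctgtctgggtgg

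The 40 libraries held 3217251 to 7068077 counts. Levels are CPM, counts scaled by TMM-normalized library size. The 19 libraries with the lower library numbers (called early) stood apart from the 21 with the higher numbers (called late). The boundary was chosen in an earlier analysis from correlations between these same libraries, no label names the sets, and the early and late libraries are therefore compared as a description with no test. All 6 Ski flox Control libraries are late. The median number of genes detected was 14629 in early and 17337 in late libraries. The epithelial marker Epcam was above 0 in all 40 libraries (54.9 to 1614 CPM), and the cTEC protease subunit Psmb11 ran from 6.51 to 1962 CPM in cTEC and from 0 to 52.0 in the mTEC sorts. The deleted gene did not separate the genotypes. Ski ran from 19 to 197 counts in cTEC Control and from 0 to 220 in cTEC KO, from 30 to 197 and 3 to 55 in MHCII-low mTEC, and from 30 to 118 and 0 to 65 in MHCII-high mTEC. KO therefore stands below for the libraries so labelled.

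The summed level of the 32 genes had its highest medians in cTEC and its lowest in MHCII-high mTEC, and in both mTEC sorts the median was lower in early than in late libraries. In cTEC it ran from 2014 to 12422 CPM (median 6977) in the 7 early libraries and from 4565 to 6991 CPM (median 5931) in the 7 late ones. In MHCII-low mTEC the 6 early libraries held 347 to 4196 CPM (median 926) and the 7 late libraries 4121 to 9738 CPM (median 5008). MHCII-high mTEC held 248 to 1658 CPM (median 464) in 6 early and 1348 to 2854 CPM (median 1946) in 7 late libraries. Late MHCII-low mTEC libraries thus lay within the range of all cTEC libraries, while early ones overlapped the early MHCII-high mTEC range. Between them the 32 genes took 0.026% to 1.355% of a library's counts. At least 1 count was seen for 30 to 32 of the genes in every late library, against 24 to 32 in early cTEC, 21 to 30 in early MHCII-low mTEC and 11 to 31 in early MHCII-high mTEC.

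**Figure D1:**
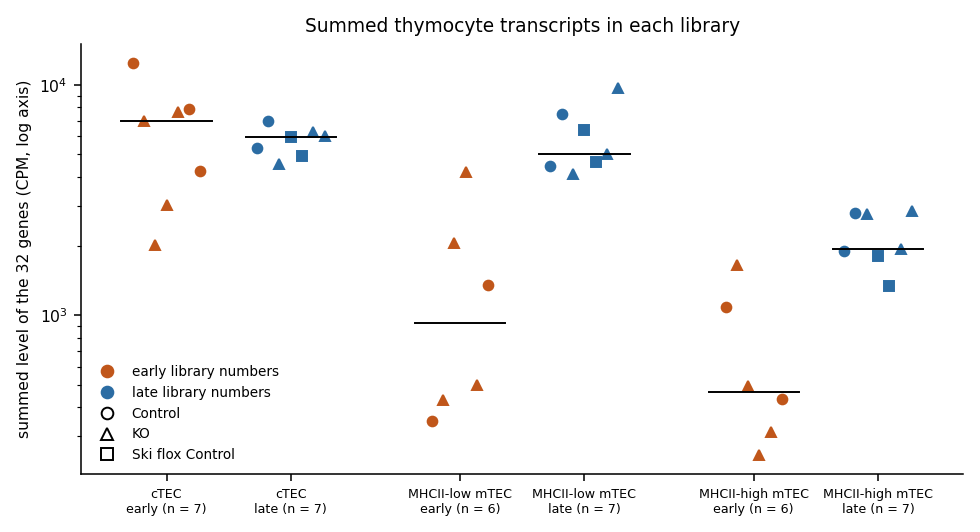
Summed CPM of the 32 genes (log axis) in each of 40 libraries, by cell type and set of library numbers, with shape for genotype and a line at the median. The cTEC medians are 6977 and 5931 CPM, while the MHCII-low mTEC median is 926 in early and 5008 in late libraries and the MHCII-high mTEC median is 464 and 1946.

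Libraries of 1 cell type and set also differed widely. Of the early MHCII-low mTEC libraries, KO replicate 3 held 4196 CPM and KO replicate 2 held 2070, while Control replicate 1, KO replicate 1 and KO replicate 4 held 347, 431 and 501. The highest sum of all, 12422 CPM, was in Control replicate 1 of cTEC, and the lowest, 248, in KO replicate 3 of MHCII-high mTEC. Ptprc and Coro1a are used by leukocytes of many kinds. Without these genes the medians were 6129 (early) and 4536 (late) CPM for cTEC, 432 and 3485 for MHCII-low mTEC, 365 and 1338 for MHCII-high mTEC. The order of the cell types in each set was thus also found without these genes. Whether leukocytes other than thymocytes added to the remaining sum was not tested.

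**Figure D2:**
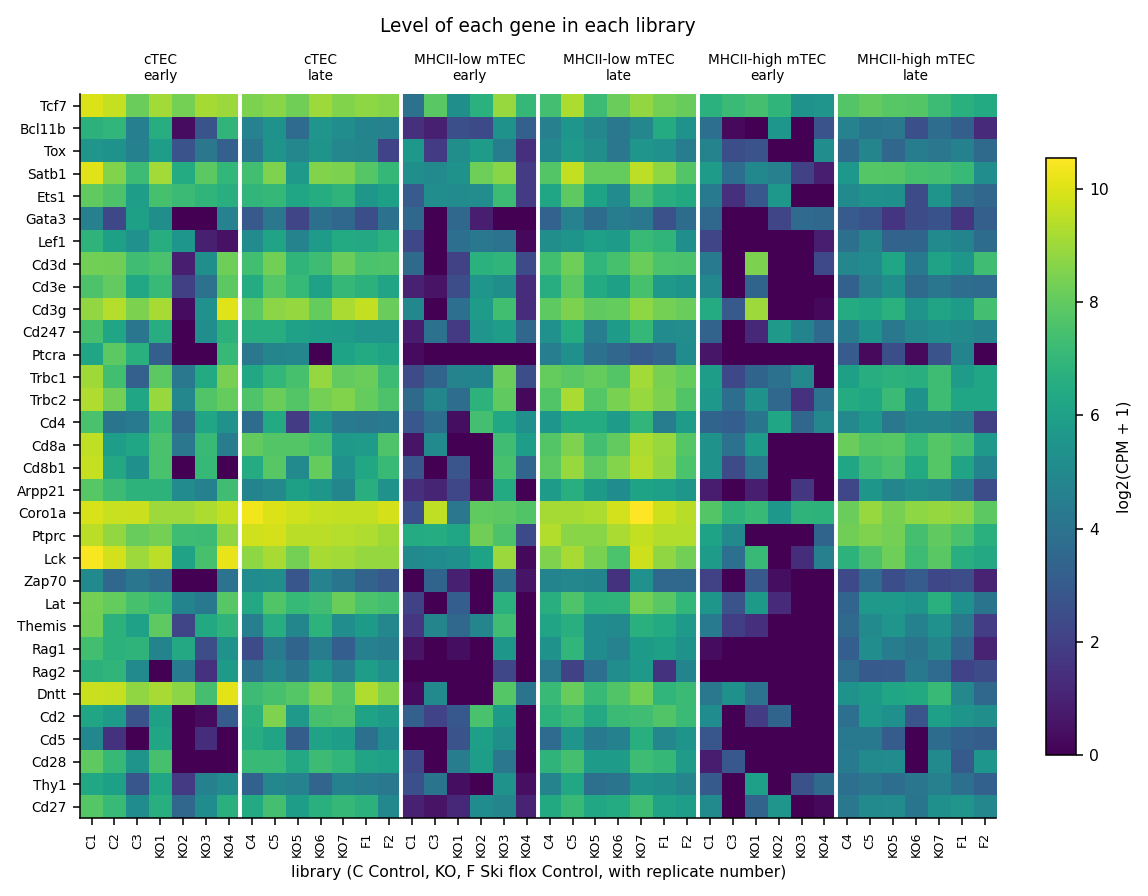
Level of each of the 32 genes (rows, grouped by role) in each of 40 libraries (columns, grouped by cell type and set), as log2(CPM + 1). Early MHCII-low and MHCII-high mTEC libraries hold many genes at 0, and late libraries of all cell types hold nearly all of the genes above 0.

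Cell types were compared with edgeR's quasi-likelihood test over 23040 genes, averaging Control and KO libraries, and all 32 genes passed the filter on low counts. In MHCII-high mTEC against cTEC, 9 of the 32 were lower at an adjusted p below 0.05 and none was higher, where 3.31% of all genes tested were lower, 21.1% higher and 24.4% called in all. The 9 were the CD3 chain gene Cd3e, the pre-TCR chain gene Ptcra, the beta chain gene Trbc2, the polymerase gene Dntt, the signalling genes Lck and Themis, the transcription factor genes Tcf7 and Ets1, and the actin regulator Coro1a. All 32 fold changes were negative, with a median log2 fold change of -2.28, beside 0.33 over all genes tested. DESeq2 called 21 of the genes lower (4.01% of all genes), limma voom 15 (3.72%), edgeR with the set of library numbers (described above) as a term 21 (4.53%), and edgeR over all 42 libraries 15 (3.65%). The sets were drawn from these same libraries, so adjusted p-values of fits that use them, here and below, may be too small. In MHCII-low mTEC against cTEC 0 genes of the group passed, beside 16.5% of all genes tested that were called (14.2% higher, 2.25% lower). At an unadjusted p under 0.05 there were 3 of 32, which is no excess, since at least 16.5% of all genes pass that looser threshold. DESeq2 called 1 lower (3% of all genes), limma voom 4 (1.71%), and the fit with the set as a term 3, Ptcra, Rag2 and Tcf7 (2.56%). There 29 of 32 fold changes were negative, with a median of -0.75 (0.27 over all genes). Both comparisons share the cTEC libraries. In MHCII-high against MHCII-low mTEC 0 passed in edgeR, beside 0.143% of all genes called (0.0998% higher and 0.0434% lower). DESeq2 and limma voom also called 0 of the 32, beside 3.09% and 3.81% of all genes. At an unadjusted p under 0.05 there were 4 in edgeR, and the share of all genes at that threshold is not reported here. All 32 were negative, with a median of -1.47 (0.04 over all genes).

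The sets of library numbers gave different pictures of the same comparisons. Among early libraries only, MHCII-low mTEC lay below cTEC for all 32 genes, with a median log2 fold change of -3.18. Of these, 0 were called by edgeR at an adjusted p below 0.05, where 0.0698% of all genes tested were called lower. At an unadjusted p under 0.05 there were 14, which cannot be set beside that share because the threshold differs. Among late libraries only, the median was -0.02, with 17 of 32 negative, and Rag1 alone passed, higher in MHCII-low mTEC (2.13, edgeR adjusted p = 0.0428), where 5.41% of all genes tested were higher. In MHCII-high mTEC against cTEC the medians were -3.47 (early, 3 called lower, Rag1, Arpp21 and Ptprc, beside 0.454% of all genes) and -1.46 (late, 14 called lower, beside 2.28%). Against MHCII-low mTEC, late MHCII-high mTEC was lower for 11 of the genes (edgeR), beside 0.747% of all genes, with all 32 negative and a median of -1.57. These 11 were Cd3d, Cd3e, Cd3g, Trbc1, Trbc2, Lck, Lat, Dntt, Cd27, Coro1a and Ptprc. Among early libraries 0 of the genes passed there (0.00498% of all genes were called lower), and 24 were negative with a median of -0.85. At an unadjusted p under 0.05 there were 4, again with no share of all genes given at that threshold. Whether a cell type difference itself differs between the sets was not tested.

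**Figure D3:**
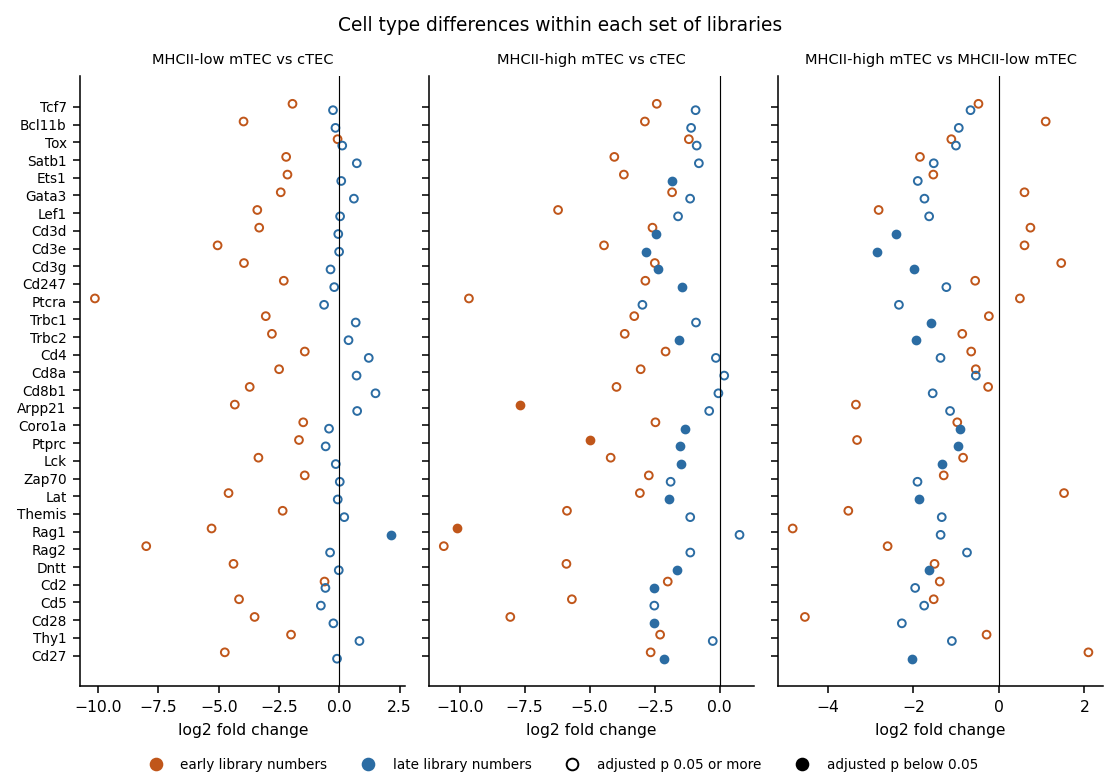
Log2 fold change of each gene between cell types, fitted in early (orange) and late (blue) libraries alone, with filled points at an edgeR adjusted p below 0.05. Early points for MHCII-low mTEC against cTEC lie at or below 0 for all 32 genes and late points scatter around 0. Values beyond -7 belong to genes with few or no counts in a group and depend on the fit's prior count.

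Over all Control and KO libraries, every MHCII-high mTEC library lay below every cTEC library for 4 of the genes, Dntt, Tcf7, Ets1 and Coro1a, beside 0.0868% of all genes tested. Within the early set there were 8 such genes (0.855% of all) and within the late set 13 (2.76%). Between late MHCII-high and late MHCII-low mTEC there were 14 (1.22%). Over both sets, and in early libraries alone, no such gene was found there (0% and 0.299% of all genes). For MHCII-low mTEC against cTEC 0 were wholly lower over both sets (0.013% of all genes), in early libraries (0.278%) or in late libraries (2.53%), and in the late set Rag1 was wholly higher (3.88% of all genes were).

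The TCR and CD3 chains form the receptor complex, and Ptcra encodes the chain that pairs with a new beta chain before the alpha chain is made. Cd3e ran from 3.05 to 259 CPM (median 142) in early and 64.4 to 219 (median 108) in late cTEC. In MHCII-low mTEC it ran from 0.452 to 44.8 (median 3.09) and 43.3 to 237 (median 85.4), and in MHCII-high mTEC from 0 to 29.02 (median 0) and 8.60 to 37.05 (median 12.5). Early MHCII-high mTEC held no Cd3e count in 4 of 6 libraries. Over Control and KO libraries its mean was 12.4 ± 12.9 (SD, n = 11) in MHCII-high mTEC and 130.4 ± 84.7 (SD, n = 12) in cTEC, a difference (MHCII-high mTEC minus cTEC, log2) of -3.36 (SE 0.99, adjusted p = 0.0135 in edgeR).

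Ptcra was detected in 5 of 7 early and 6 of 7 late cTEC libraries, from 0 to 234 CPM (median 73.7) and 0 to 86.8 (median 28.4). All 7 late MHCII-low mTEC libraries held it, at 7.32 to 38.6 (median 14.4). In each early mTEC sort 5 of 6 libraries held no Ptcra count, and the other held 0.246 CPM (MHCII-low) or 0.548 (MHCII-high). Late MHCII-high mTEC held 0 to 26.04 (median 4.85). The fitted log2 fold change of MHCII-high mTEC against cTEC was -5.00 (SE 1.54, adjusted p = 0.0174 in edgeR), and it depends on the prior count because of the many libraries at 0. Within each set alone Ptcra did not pass (edgeR adjusted p = 0.0627 early and 0.149 late). The beta chain gene Trbc2 ran from 28.6 to 623 (median 266) and 193 to 380.00 (median 267) in cTEC and from 1.87 to 48.7 (median 14.1) and 41.04 to 153 (median 76.9) in MHCII-high mTEC, a difference (MHCII-high mTEC minus cTEC, log2) of -2.32 (SE 0.73, adjusted p = 0.0192 in edgeR). Trbc2 did not pass with limma voom (adjusted p = 0.0778) or in early libraries alone (edgeR adjusted p = 0.0848). Late MHCII-low mTEC held 205 to 585 (median 342), above every late MHCII-high mTEC library. Its near copy Trbc1 gave -1.82 (SE 0.79, adjusted p = 0.0949 in edgeR), which did not pass.

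Cd3d, Cd3g and Cd247 encode the other CD3 chains. Their fold changes in MHCII-high mTEC against cTEC were -2.34, -2.37 and -1.83 on the log2 scale, none past the threshold in the fit of all libraries, and all of them passed among late libraries (-2.45, -2.36 and -1.44). A single early MHCII-high mTEC library, KO replicate 1, held 353 CPM of Cd3d and 513 of Cd3g, against 9.54 CPM of Cd3e. The neighbouring Cd3 genes thus did not keep 1 ratio across libraries.

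The coreceptors CD4 and CD8 bind MHC class II and class I. Medians of Cd8b1 were higher in late than in early libraries of the mTEC sorts. It ran from 0 to 785 CPM (median 80.8) in early cTEC and 32.5 to 265 (median 88.3) in late cTEC. In MHCII-low mTEC it ran from 0 to 179.5 (median 5.87) in early and 188 to 645 (median 384) in late libraries, with no overlap between the sets. MHCII-high mTEC held 0 to 41.9 (median 2.24) and 25.8 to 215 (median 87.4). Neither Cd8b1, Cd8a nor Cd4 passed in any cell type comparison of the fit of all libraries, with log2 fold changes of -1.12, -0.66 and -1.06 in MHCII-high mTEC against cTEC.

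RAG1 and RAG2 cut the receptor genes, and the polymerase encoded by Dntt (TdT) adds bases at the joints. Dntt was higher in cTEC than in MHCII-high mTEC. In cTEC it stood at 172 to 1125 CPM (median 582) in early and 152 to 621 (median 216) in late libraries. It held 0 to 220.02 (median 8.04) and 123 to 314 (median 146) in MHCII-low mTEC. In MHCII-high mTEC it held 0 to 38.8 (median 7.70) and 10.5 to 137 (median 53.3), below every cTEC library. The means over Control and KO libraries were 42 ± 43.1 (SD, n = 11) and 457 ± 315 (SD, n = 12) CPM, a difference (MHCII-high mTEC minus cTEC, log2) of -3.48 (SE 1.03, adjusted p = 0.0134 in edgeR).

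Rag1 showed an opposite order of the sets in cTEC and in the mTEC sorts. In cTEC it ran from 4.59 to 162 CPM (median 81.1) in early and only 4.40 to 23.4 (median 18.8) in late libraries. In MHCII-low mTEC 3 of 6 early libraries held no count, KO replicate 3 held 47.2 CPM, and late libraries held 24.9 to 124 (median 40.9), above every late cTEC library. In MHCII-high mTEC 5 of 6 early libraries held none and the other 0.274 CPM, and late libraries held 0.994 to 35.5 (median 15.9). Rag2 had no count in any of the 6 early MHCII-high mTEC libraries, which allows at most 0.114 CPM over them (3 counts over their summed sizes, counting error only). Its mean in early cTEC was 47.5 CPM, at least 416-fold higher. The pooled log2 fold changes in MHCII-high mTEC against cTEC, -2.24 for Rag1 and -2.81 for Rag2, did not pass (edgeR adjusted p = 0.187 and 0.113).

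**Figure D4:**
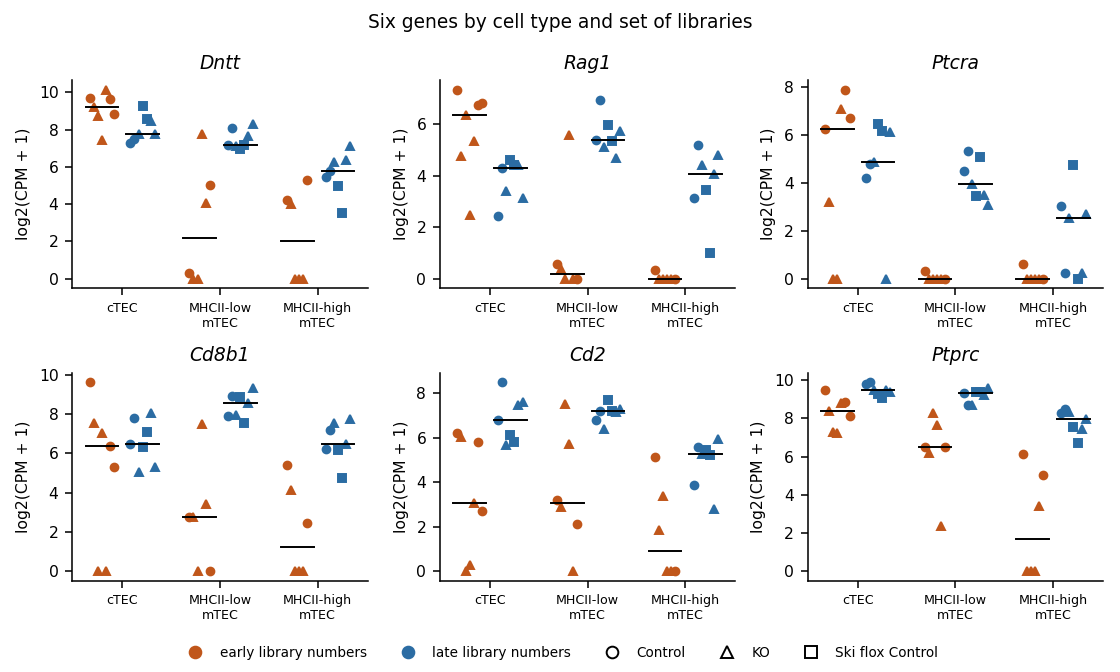
Dntt, Rag1, Ptcra, Cd8b1, Cd2 and Ptprc as log2(CPM + 1) in each library, by cell type and set (orange early, blue late), with lines at the median. Dntt and Rag1 medians are higher in early than in late cTEC libraries and lower in early than in late mTEC libraries, while Cd2 and Ptprc medians are higher in late libraries of every cell type.

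LCK and ZAP-70 are the kinases that act first on the receptor, LAT is the adaptor they modify, and THEMIS tunes the signal in thymocytes. Lck ran from 66.1 to 1399 CPM (median 728) and 322 to 583 (median 468) in early and late cTEC. In MHCII-low mTEC it ran from 0.174 to 494 (median 36.05) and 187 to 856 (median 362), and in MHCII-high mTEC from 0 to 143 (median 18.5) and 80.7 to 302 (median 149). All late MHCII-high mTEC libraries lay below all late cTEC libraries, and the early ranges overlapped. The log2 fold change over both sets was -2.56 (SE 0.82, adjusted p = 0.0206 in edgeR). Themis ran from 3.61 to 313 (median 108) and 22.2 to 111 (median 35.02) in cTEC and from 0 to 19.2 (median 0.867) and 2.78 to 44.99 (median 23.96) in MHCII-high mTEC, a difference (MHCII-high mTEC minus cTEC, log2) of -2.69 (SE 0.93, adjusted p = 0.0317 in edgeR). Without MHCII-high mTEC Control replicate 3 neither passed (adjusted p = 0.0515 for Lck and 0.0768 for Themis in edgeR). Themis also missed the threshold without cTEC Control replicate 1 (0.0720), cTEC KO replicate 1 (0.0520), MHCII-high mTEC Control replicate 1 (0.0606) or MHCII-high mTEC Control replicate 4 (0.0711). Within each set alone Themis did not pass (edgeR adjusted p = 0.0618 early and 0.217 late). Lck did not pass with limma voom (adjusted p = 0.0717) or in early libraries alone (edgeR adjusted p = 0.106). Lat (-2.43) and Zap70 (-2.04) did not pass in the fit of all libraries.

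Transcription and chromatin factors of the T lineage include TCF-1 (Tcf7) and LEF-1, which open T cell genes, BCL11B, which holds cells in the lineage, and GATA3, TOX, SATB1 and ETS1. Tcf7 had no library at 0. It ran from 285 to 1009 CPM (median 551) and 305 to 507 (median 402) in cTEC, from 14.2 to 486 (median 119) and 148 to 609.7 (median 282) in MHCII-low mTEC, and from 41.4 to 171 (median 112) and 87.1 to 258 (median 211) in MHCII-high mTEC. Every MHCII-high mTEC library lay below every cTEC library. Means over Control and KO libraries were 152 ± 71.1 (SD, n = 11) and 498 ± 216 (SD, n = 12) CPM, a difference (MHCII-high mTEC minus cTEC, log2) of -1.68 (SE 0.41, adjusted p = 0.00423 in edgeR), the smallest adjusted p of the 32 genes. Within each set alone, with fewer libraries, Tcf7 did not pass there (edgeR adjusted p = 0.0569 early and 0.0756 late). Against cTEC, MHCII-low mTEC gave -1.04 (SE 0.40, adjusted p = 0.0707 in edgeR) for Tcf7, just outside the threshold. Leaving out MHCII-low mTEC Control replicate 5, KO replicate 3 or KO replicate 7 brought it inside (0.0161, 0.0422 and 0.0471). Ets1 ran from 58.01 to 249 (median 147) and 46.98 to 130.1 (median 91.9) in cTEC and from 0 to 48.7 (median 4.02) and 4.32 to 42.9 (median 30.9) in MHCII-high mTEC, a difference (MHCII-high mTEC minus cTEC, log2) of -2.63 (SE 0.73, adjusted p = 0.00933 in edgeR). The other factors were negative without passing in MHCII-high mTEC against cTEC, from -1.02 (Tox) to -2.55 (Lef1).

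Among surface receptors, CD2, CD5, CD28 and CD27 adhere to or signal from neighbouring cells, and Thy1 is a surface glycoprotein of mouse thymocytes. None of the 5 passed between cell types in the fit of all libraries. Thy1 ran from 2.50 to 78.9 CPM (median 33.2) and 8.57 to 28.3 (median 21.2) in cTEC, from 0 to 41.3 (median 2.63) and 14.1 to 80.4 (median 26.9) in MHCII-low mTEC, and from 0 to 62.01 (median 5.96) and 8.75 to 23.5 (median 13.4) in MHCII-high mTEC. The 3 cell types overlapped in both sets. Cd2, Cd28 and Cd27 passed among late libraries for MHCII-high mTEC against cTEC, with log2 fold changes of -2.54, -2.52 and -2.13.

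Ptprc encodes the protein the gate was set against. It ran from 150.2 to 708 CPM (median 327) in early and 528 to 938 (median 700.5) in late cTEC. MHCII-low mTEC held 4.18 to 303 (median 90.03) and 408 to 773 (median 643), and MHCII-high mTEC 0 to 67.9 (median 4.83) and 104 to 362 (median 249). Late libraries of both mTEC sorts lay above all early ones, and 3 of 6 early MHCII-high mTEC libraries held no Ptprc count. In MHCII-high mTEC against cTEC the log2 fold change was -1.91 (SE 0.83, adjusted p = 0.0911 in edgeR) over both sets, and within each set it passed (adjusted p = 0.0356 early and 0.000721 late, edgeR). Coro1a, which encodes an actin regulator of leukocytes, ran from 510.5 to 962 (median 760.4) and 769 to 1301 (median 883) in cTEC and from 47.8 to 209 (median 116) and 238 to 491 (median 419) in MHCII-high mTEC, a difference (MHCII-high mTEC minus cTEC, log2) of -1.69 (SE 0.51, adjusted p = 0.0149 in edgeR). Early MHCII-low mTEC libraries overlapped both other sorts, from 4.91 to 739 (median 220.2). Arpp21, a phosphoprotein gene used by immature thymocytes, gave -2.66 (SE 1.03, adjusted p = 0.0563 in edgeR) in MHCII-high mTEC against cTEC, outside the threshold.

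Gene by gene, early and late libraries differed in the mTEC sorts and hardly as a group in cTEC. In MHCII-low mTEC 31 of 32 genes were more than 2-fold higher in late libraries, where 17% of all genes were, with a median early minus late difference of -2.72 on the log2 scale (-0.03 over all genes). In MHCII-high mTEC 23 were (24.3% of all genes), with a median of -2.29 (-0.10 over all genes). In cTEC 8 of 32 were more than 2-fold higher in early libraries (22.7% of all genes) and 4 in late libraries (21.1%), with a median of 0.04, which is near the background. The cTEC genes past 2-fold in early libraries were Rag1 (2.29), Dntt (1.51), Arpp21 (1.48), Cd4 (1.21), Themis (1.17), Bcl11b (1.08), Ptcra (1.06) and Thy1 (1.05). Those past 2-fold in late cTEC libraries were Cd2 (-2.72), Cd5 (-1.97), Ptprc (-1.18) and Zap70 (-1.03). Cd2 was at 0 in 1 early cTEC library and ran from 0 to 72.9 (median 7.37) CPM in early and 51.01 to 361 (median 109.8) in late cTEC, so the ranges overlapped. In MHCII-low mTEC early and late ranges were apart for 8 genes (0.59% of all genes tested), and in MHCII-high mTEC for 6 (1.62%), all lower in early libraries. In cTEC they were apart for 0 (1.55%). Without the Ski flox Control libraries, and with cell types combined, 23 of 32 genes were more than 2-fold higher in late libraries (16.8% of all genes), against 22 with them (18.8%).

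**Figure D5:**
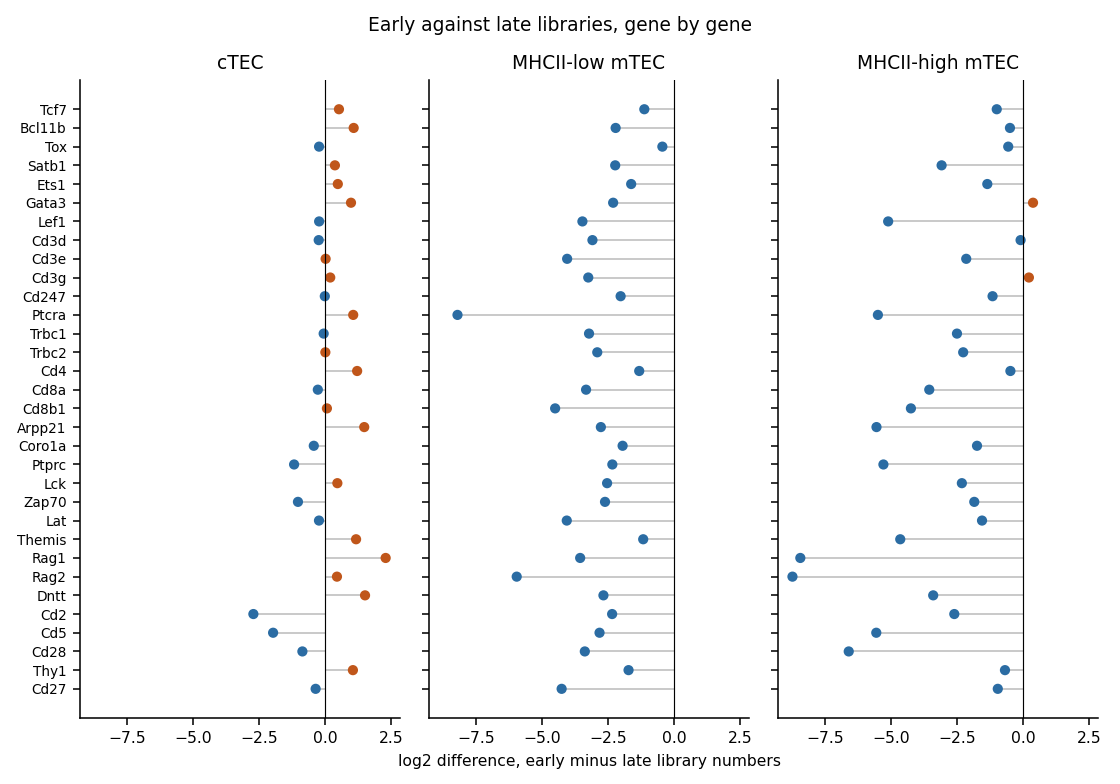
Early minus late difference of each gene on the log2 scale within each cell type, orange where early libraries are higher and blue where late ones are. In cTEC the 32 genes fall on both sides of 0 (median 0.04) and in MHCII-low mTEC all lie below 0 (median -2.72). Rag2 in MHCII-high mTEC had no early count, and its fitted value there is not a bound.

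The make-up of the summed level differed with the set. In cTEC the 3 recombination genes took a median of 12.8% of the sum in early and 5.302% in late libraries, and the 7 transcription and chromatin genes 21.2% and 15.1%. Ptprc took 5.82% and 11.2%. In MHCII-low mTEC the coreceptors took 5.93% and 12.5%, and Tcf7 alone 10.1% and 5.12%. In MHCII-high mTEC Tcf7 took 15.4% and 8.11% and Dntt 0.464% and 2.21%. Shares in early mTEC libraries rest on low sums and varied widely, with the CD3 and TCR chains taking 5.49% to 55.9% of the sum in early MHCII-high mTEC.

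Per kilobase of exon, Trbc2 and Coro1a were within the 4 highest means of the 32 in every sort and set. The length used counts the exons of every annotated transcript, so it can exceed that of the transcript expressed. Genes with long exon totals, such as Satb1 (19027 bases) and Ptprc (18313), may therefore rank too low, and the order between genes is approximate. The split of reads between Trbc2 and Trbc1 is uncertain, as described above. In cTEC Trbc2 had the highest mean, 414 ± 308 CPM per kb (SD, n = 7) in early and 386 ± 101 (SD, n = 7) in late libraries. Behind it Dntt stood at 272 ± 138 in early cTEC and at 132 ± 71.8 in late cTEC, where Coro1a was next after Trbc2 at 333 ± 68.3. Trbc2 also had the highest mean in MHCII-low mTEC, at 99.2 ± 140.3 (SD, n = 6) in early and 496 ± 216 (SD, n = 7) in late libraries. The order of the means of Cd8b1 and Lck there differed with the set. Lck stood at 38.03 ± 64.5 and Cd8b1 at 22.6 ± 48.3 CPM per kb in early libraries, and at 151 ± 74.2 and 255 ± 112 in late ones, with SDs wider than or close to the gap. In MHCII-high mTEC Coro1a had the highest mean, at 44.1 ± 18.6 and 138 ± 35.3, and the next gene lay within its SD.

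None of the 32 genes differed between KO and Control past the threshold in any cell type. In edgeR 0 of 23040 genes passed in any of the 3 cell types (0% in each), and 0 of the 32 genes had an unadjusted p under 0.05. Unadjusted, 2443, 1639 and 1586 of all genes did. DESeq2 called 516, 234 and 146 genes (2.24%, 1.02% and 0.634%) and limma voom 10, 11 and 14 (0.0434%, 0.0477% and 0.0608%), with 0 of the 32 among them in each. In cTEC the summed level was 5213 ± 2092 CPM (SD, n = 7) for KO libraries, beside 7383 ± 3158 (SD, n = 5) for Control libraries. In MHCII-low mTEC it was 3724 ± 3219 (n = 7) and 3414 ± 3242 (n = 4), and in MHCII-high mTEC 1466 ± 1126 (n = 7) and 1552 ± 1017 (n = 4). The difference in cTEC was smaller than the SD of Control and slightly larger than that of KO, with overlapping ranges, and the differences in the mTEC sorts were smaller than both SDs. Ski flox Control held 5432, 5507 and 1583 CPM in the mean of 2 libraries each.

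The median log2 fold change of the 32 genes in KO against Control was -0.57 in cTEC, with 30 of 32 negative (0.00 over all genes), 0.09 in MHCII-low mTEC and -0.07 in MHCII-high mTEC. Single libraries moved these medians. Without Control replicate 1 the cTEC median was -0.26 with 25 negative, and without KO replicate 1 it was -0.85 with 31 negative. The MHCII-low mTEC median was 0.98 with 30 positive without Control replicate 5 and -0.42 with 26 negative without KO replicate 7. In MHCII-high mTEC it ran from -0.43 without Control replicate 3 to 0.35 without Control replicate 5. Within sets the cTEC median was -0.89 in early and -0.05 in late libraries, the MHCII-low mTEC median 2.32 and -0.05, and the MHCII-high mTEC median -0.79 and 0.08. The late values were close to 0 in all 3 cell types. The early MHCII-low mTEC value compares 4 KO libraries, with sums of 431 to 4196 CPM, with 2 Control libraries at 347 and 1352. No difference of the KO effect between cell types was called for the 32 genes (edgeR interaction contrasts, 0 of 23040 genes called, 0 of the 32 at an unadjusted p under 0.05).

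Other genes of the same pathways were compared in the same fit. Of 20 other TCR signalling genes, 3 were lower in MHCII-high mTEC than cTEC and 0 higher, with a median of -1.76. Of all genes tested in that comparison 3.31% were lower and 21.1% higher. The 3 were Skap1, an adaptor (-2.86, edgeR adjusted p = 0.0161), the kinase gene Prkcq (-3.31, edgeR adjusted p = 0.0204) and the kinase gene Fyn (-1.64, edgeR adjusted p = 0.0336). Of 25 other thymocyte stage genes, 3 were lower and 0 higher (3.31% and 21.1% of all genes), among them Il2ra (-2.75, edgeR adjusted p = 0.0221) and the Notch target Hes1 (-1.83, edgeR adjusted p = 0.0365). In MHCII-low mTEC against cTEC, where 2.25% of all genes were lower and 14.2% higher, Il2ra (-3.01, edgeR adjusted p = 0.0208) and Ccr7 (-2.61, edgeR adjusted p = 0.0397) were lower and Ly6d (1.01, edgeR adjusted p = 0.0347) was higher. Of 5 other TCR constant genes, the gamma and delta genes Trdc (-4.18, edgeR adjusted p = 0.0182) and Tcrg-C1 (-4.998, edgeR adjusted p = 0.00443) were lower in MHCII-high mTEC than cTEC, as were Tcrg-C2 and Tcrg-C4. Both Trdc (-3.85, edgeR adjusted p = 0.0349) and Tcrg-C1 (-3.02, edgeR adjusted p = 0.0499) were also lower in MHCII-low mTEC. The alpha constant gene Trac did not pass. It ran from 0 to 218 CPM in early and 52.6 to 372 in late cTEC, and from 173 to 521 in late MHCII-low mTEC.

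Markers of other cells were summed in the same libraries, and their part in the results above was not tested. Of 10 pan-leukocyte genes other than Ptprc and Coro1a, 2 were lower and 0 higher in MHCII-high mTEC than cTEC (3.31% and 21.1% of all genes), Arhgdib (-0.87, edgeR adjusted p = 0.0111) and Cd53 (-2.28, edgeR adjusted p = 0.0397). Their sum ran from 1993 to 5305 CPM (median 4188) in early and 5301 to 7975 CPM (median 6319) in late cTEC, from 1409 to 5466 CPM (median 3983) and 3770.3 to 8153 CPM (median 6304) in MHCII-low mTEC, and from 2242 to 4020.3 CPM (median 3282) and 3626 to 4667 CPM (median 4332) in MHCII-high mTEC. The 12 B-lineage genes summed to 235 to 15292 CPM (median 658) in late cTEC and 534 to 17421 CPM (median 964) in late MHCII-low mTEC, so single libraries held high B-lineage levels. Blnk was higher (2.37, edgeR adjusted p = 0.00156) and Ighm lower (-4.50, edgeR adjusted p = 0.00737) in MHCII-high mTEC than cTEC, and Cd79a, which encodes a chain of the B cell receptor complex, was at 0 in 8 of 40 libraries. The 16 myeloid and dendritic genes summed to 256 to 3440.3 CPM (median 1167) in early cTEC and 769 to 12736 CPM (median 2503) in early MHCII-low mTEC, and Lyz2 was higher in MHCII-high mTEC than cTEC (1.86, edgeR adjusted p = 0.0079). The 6 erythroid genes summed to 3.58 to 389.6 CPM (median 56.4) in early and 0 to 1.85 CPM (median 0.756) in late cTEC, with Alas2 higher in MHCII-high mTEC. Blnk, Ighm, Lyz2 and Alas2 are single genes and do not stand for their lists. The other genes of these lists are not reported here for MHCII-high mTEC against cTEC. Of all genes tested there, 21.1% were higher and 3.31% lower. Of 9 fibroblast genes 4 and of 10 endothelial genes 3 were lower in MHCII-high mTEC than cTEC and 0 of either list higher, and 0 of 10 cell cycle genes passed in edgeR (3.31% of all genes were lower and 21.1% higher).

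The summed level of 18 epithelial identity genes had a higher median in early than in late libraries of every cell type, though single genes went both ways. Early minus late differences were negative for 3 of the 18 in cTEC, 6 in MHCII-low mTEC and 4 in MHCII-high mTEC. More than 2-fold higher in late libraries were 2, 1 and 2 of the 18, where 21.1%, 17% and 24.3% of all genes were. In early libraries 13, 8 and 4 were, beside 22.7%, 23.2% and 18.4% of all genes. The 4 in MHCII-high mTEC are near that share. The sums were 4490.4 to 18768 CPM (median 9426) in early and 1312 to 7545 CPM (median 3746) in late cTEC, to 4959 to 11908 CPM (median 6362) and 1506 to 6772 CPM (median 4369.9) in MHCII-low mTEC, and to 5818 to 7613 CPM (median 6888) and 4082 to 5886 CPM (median 5139) in MHCII-high mTEC. Foxn1, the transcription factor gene that defines TEC, had a median of 59.0 CPM in early and 2.34 in late cTEC and of 38.9 and 0.349 in MHCII-low mTEC. It was at 0 in 4 of the 21 late libraries and in none of the 19 early ones. Between cell types 7 of the 18 were higher and 4 lower in MHCII-high mTEC than cTEC (21.1% and 3.31% of all genes), among them Epcam (2.004, edgeR adjusted p = 4.61e-06), which the gate used, Ctsl (-3.72, edgeR adjusted p = 6.04e-05), Fezf2 (4.94, edgeR adjusted p = 0.000384) and Psmb11 (-5.74, edgeR adjusted p = 0.00046).

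Other genes were ranked by how closely their levels followed the sum of the 32. Among 13027 other genes with a mean of at least 5 CPM, the highest Spearman correlations over 40 libraries were those of the TCR adaptor Skap1 (0.93), the adaptor Grap2 (0.90), the small GTPase gene Rhoh (0.89), Edem1 (0.89), Ptprcap (0.87), Sla (0.86), Ptpn7 (0.85), Rasal3 (0.85), Asf1b (0.85) and Prkcb (0.84). Ptprcap encodes a protein that binds CD45, while EDEM1 acts in protein quality control of the endoplasmic reticulum and ASF1B is a histone chaperone. Skap1, Grap2 and Sla are in the list of other TCR signalling genes, and the other 7 are in none of the lists. The points share their library depth and set. Within the early set alone these 10 correlations ran from 0.705 (Ptpn7) to 0.921 (Rasal3), and within the late set from 0.683 (Prkcb) to 0.864 (Rhoh).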

How the data were processed

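The deposited table holds whole-number read counts per gene, made by the authors from libraries of sorted cells amplified with SMART-Seq v4 and tagged with Nextera XT, per the labels' protocols. That chemistry keeps neither strand nor molecule, so reads of overlapping genes and amplification copies cannot be separated. Per the submitters' processing notes, the tools included SAMtools 1.2, FastQC 0.11.3, HTSeq 0.4.1 and Picard 1.134, and the build was GRCm38. Aligner, annotation release and strand setting were not given in the sources used. Of 53465 Ensembl identifiers, 53274 matched GENCODE M21.

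Libraries under 100000 counts were left out. The remaining 40 were fitted together with edgeR 4.0.16 (quasi-likelihood, TMM scaling, filterByExpr with a minimum count of 10 and a minimum total of 15) in R 4.3.3, with 1 coefficient for each cell type and genotype, and p-values were Benjamini-Hochberg adjusted over all 23040 genes tested. Cell type contrasts average Control and KO and leave Ski flox Control out. The common biological coefficient of variation was 1.403. The script was tested on simulated data. Summaries used Python 3.11.15, pandas 2.3.3, NumPy 2.4.6 and SciPy 1.17.1. Alternatives used DESeq2 1.42.0, limma 3.58.1 voom, other scalings and filters, all 42 libraries, a term for the set of library numbers, the groups compared alone, each set alone, and each library left out.

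The members, the other lists and the boundary between early and late libraries were chosen with earlier results of these data known. One symbol of the other lists was mistyped when written down and was read as Foxp3 and Cd69. Every member could be named, and levels were described in full for members past the threshold (at most the 2 of smallest p per role) and for Cd3e, Cd8b1, Rag1, Ptcra, Lck, Tcf7, Thy1 and Ptprc. From the other lists up to 4 genes past the threshold were named. Other genes named for a value were chosen after it was seen. Some genes of the other lists are counted but not reported here by name.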

Additional observations from a re-analysis of the deposited data

Results flagged for a closer look

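In 4 of 54 sets of libraries of 1 cell type and genotype that were checked for 8 members and the summed level, the highest library lay far from the others by Dixon's ratio at 95%, where chance alone gives about 1 in 20. Cd8b1 stood at 785 CPM in Control replicate 1 of cTEC, with the next Control library at 225. Ptcra stood at 7.08 CPM in Control replicate 4 of MHCII-high mTEC, with the next at 0.548. Thy1 stood at 74.9 CPM in KO replicate 1 of cTEC (next 33.2) and at 62.0 in KO replicate 1 of MHCII-high mTEC (next 23.5).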

How the results depend on the processing

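No paired analysis was run, because no label ties libraries of different sorts to 1 animal. The labels give no replicate numbers, and the numbers used here only name libraries in accession order. Library numbers do run in consecutive blocks of 1 cTEC, 1 MHCII-low and 1 MHCII-high mTEC library of 1 genotype. Whether such a block is 1 animal is not stated, and a term for it was not fitted. The count of members called in MHCII-high mTEC against cTEC was 9, and it was 21 with DESeq2, 15 with limma voom, 15 with all 42 libraries, 21 with the set of library numbers as a term, 3 in early libraries only and 14 in late libraries only. Leaving out 1 library at a time gave 7 to 13. For MHCII-low mTEC against cTEC it was 0, and 1 with DESeq2, 4 with limma voom, 3 with the set term, 1 in late libraries only and 0 to 1 with 1 library left out. For MHCII-high against MHCII-low mTEC it was 0, and 11 in late libraries only. The late cTEC median of the summed level was 5931 CPM, and 7276 with all 42 libraries. The KO count was 0 under every alternative run. Signs of cell type fold changes were followed only for members past the threshold and for some of those described in full. The changes named next are therefore not a full list. Other members also changed sign within 1 set, as the counts of negative fold changes given above show. Signs changed for Cd8b1 in MHCII-low mTEC against cTEC, from 0.38 to -0.56 (limma voom), -1.44 (set term), -3.71 (early only) and -0.21 without MHCII-low mTEC Control replicate 5 (range -0.21 to 0.99 with 1 library left out). In late libraries only, Rag1 changed sign in MHCII-low mTEC (2.13) and MHCII-high mTEC (0.76) against cTEC, and Thy1 in MHCII-low mTEC (0.83). In early libraries only, Cd3e changed sign in MHCII-high against MHCII-low mTEC (0.60). Fits of 1 set hold fewer samples and test fewer genes, and otherwise the cause was not tested. The boundary between the sets came from these same libraries, so calls with the set term or within 1 set may come too easily. Genes at or near 0 in most libraries of a group have fitted values that depend on the prior count.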

Other observations

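Both libraries left out for low depth were Control libraries. The MHCII-low mTEC library held 82 counts over 61 genes and 0 counts of the 32 genes. The MHCII-high mTEC library held 41828 counts over 4381 genes, of which 59 counts (0.141%) fell on 10 of the 32.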
